A study of Mus musculus with 9 samples.

Results

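The 10 genes described here encode amino acid transporters, carriers that move amino acids across the plasma membrane, and the heavy chain that several of them need: Slc7a5, Slc3a2, Slc1a5, Slc7a1, Slc7a6, Slc7a11, Slc38a1, Slc38a2, Slc43a1 and Slc1a4. They were chosen by name, and all 10 were found among the 55471 gene identifiers of the count files. Their RNA was compared between control and ketolysis-deficient mouse CD8+ T cells. All cells were OT-I cells, whose transgenic receptor recognises an ovalbumin peptide.

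The control group (Bdh1-WT;shCtrl, n = 4) kept a functional Bdh1 and carried a hairpin against the luciferase of fireflies as the control hairpin. The DKO group (Bdh1-KO;shOxct1, n = 5) was a Bdh1 knockout with a hairpin against Oxct1, so the second gene was knocked down and not deleted. The enzymes encoded by these genes carry out successive steps of ketone body use, the oxidation of beta-hydroxybutyrate (Bdh1) and the activation of acetoacetate (Oxct1). Both groups were activated for 24 h with antibodies to CD3 and CD28 and 50 U/mL interleukin 2, transduced, sorted on the Ametrine reporter and transferred into C57BL/6 mice. The hosts were infected with LmOVA (ovalbumin-expressing Listeria monocytogenes), and the transferred cells were sorted again on day 7. The donor cells had thus been through culture and transduction before transfer, and the ages of the animals are not given in the labels. The labels do not say whether replicates came from different donors or hosts, so p-values measure only the spread between these libraries.

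T cells take up little amino acid at rest and raise uptake strongly after antigen recognition, because growth and division need protein. Leucine enters largely through a heterodimer of Slc7a5 and the heavy chain Slc3a2, in exchange for intracellular amino acids such as glutamine, which the Slc1a5 carrier brings in. Leucine and arginine inside the cell are sensed by the kinase complex mTORC1. When amino acids run short, the kinase Gcn2 and the transcription factor Atf4 raise the transcription of several transporter genes.

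Each library held 45205993 to 59853080 counts in genes. Oxct1 ranged from 59.2 to 71.5 CPM in the controls and from 4.61 to 5.51 CPM in the DKO libraries, where CPM is a count scaled to the size of its library by TMM, edgeR's trimmed mean method. Bdh1 was at 25.1 to 35.1 and 8.98 to 11.6 CPM, so both targets went with the labels. The unstranded counts used here miss some reads of both genes: the sums of the strand columns were 1.13 (Oxct1) and 1.19 (Bdh1) times as large. With these sums the log2 fold changes by edgeR were -3.49 and -1.51, against -3.61 and -1.52 with the unstranded counts. The CD8 T cell genes were present in every library, with Cd8a at 663.3 to 797.5 CPM. Control replicate 1 stood apart from the rest: 16.7% of its reads were unmapped, the highest share of the 9 libraries. Of 14918 genes tested, its CPM lay below the other 8 libraries for 28.9% and above them for 28.3%. Fold changes of the transporters that rest on this library are given with and without it.

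No transporter gene passed the test between DKO and control. Of the 10 genes, 9 passed the filter on low counts and were tested, and 0 of these 9 passed the threshold of 0.05 on the adjusted p of edgeR's quasi-likelihood test, where 2.83% of all tested genes did. The same count was 0 in DESeq2 and in limma-voom. At an unadjusted p under 0.05 there was 1 gene, Slc1a5, against a background of 16.0%, and the CPM of the groups overlapped for all 9 genes, where 8.71% of tested genes did not overlap. The estimate was higher in DKO for 5 genes and lower for 4. The median log2 fold change of the 9 was 0.05, and that of all tested genes was -0.01. Disregarding sign, the median size of the log2 fold change was 0.13 over the 9 genes and 0.18 over all tested genes.

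**Figure D1:**
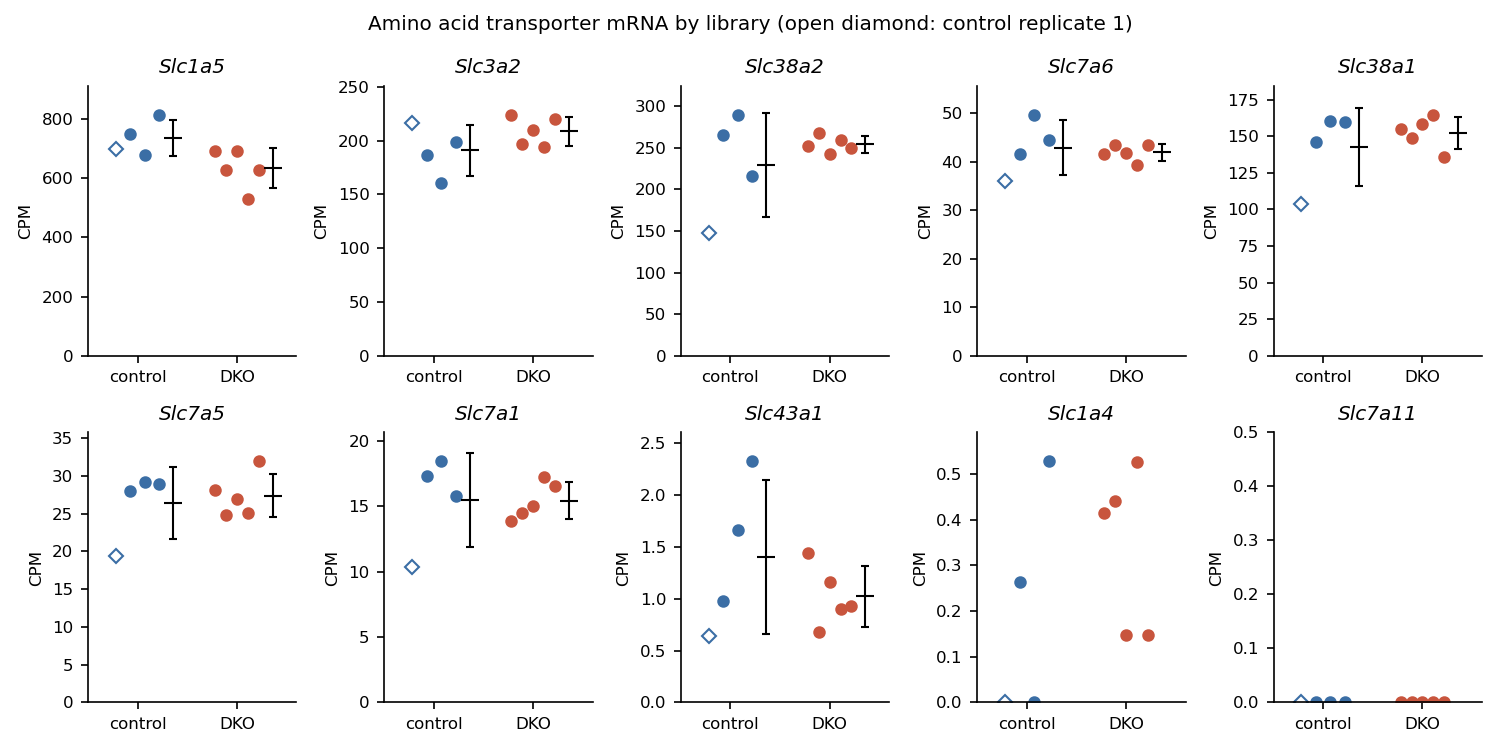
CPM of each transporter gene (vertical axis, starting at 0) in each library of the control (blue) and DKO (red) groups, with the mean and SD of the group as a bar except for Slc1a4 and Slc7a11, which have libraries at 0. The open diamond is control replicate 1, which is the lowest of the 9 libraries in 6 genes and in 28.9% of all tested genes. The groups overlap in every panel.

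Levels were compared between genes per length, here in TPM (the unstranded counts divided by the exon length of each gene and scaled to the same total in every library). The exon length joins all annotated exons of a gene, and which of its transcripts the cells made was not measured. On this scale the genes spanned a wide range. Slc1a5 was highest, at 558.9 ± 57.6 TPM in control (SD, n = 4) and 495.7 ± 61.3 TPM in DKO (SD, n = 5), above 98.3% of the tested genes. Slc3a2 followed at 170.9 ± 13.3 and 192.9 ± 14.97 TPM, and Slc38a2 at 83.3 ± 26.2 and 93.5 ± 2.94 TPM. The ranges of these 3 genes over the 9 libraries did not overlap one another.

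By TPM, Slc7a6, Slc38a1 and Slc7a5 formed a middle tier. Their means over all 9 libraries were 29.9, 27.8 and 23.5 TPM, and their ranges overlapped, so the order within this tier was not fixed: Slc7a6 exceeded Slc38a1 in 7 of 9 libraries and Slc38a1 exceeded Slc7a5 in 8 of 9. The place of Slc38a1 depends on its exon length of 17236 bases, against 4570 for Slc7a6 and 3708 for Slc7a5. In CPM its control mean was 142.7, against 42.9 and 26.4. Slc7a1 was lower, at 4.33 TPM, and did not overlap with any gene of this tier. Slc43a1 averaged 0.674 TPM and Slc1a4 0.226 TPM, with overlapping ranges. Slc7a11 had no counts.

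**Figure D2:**
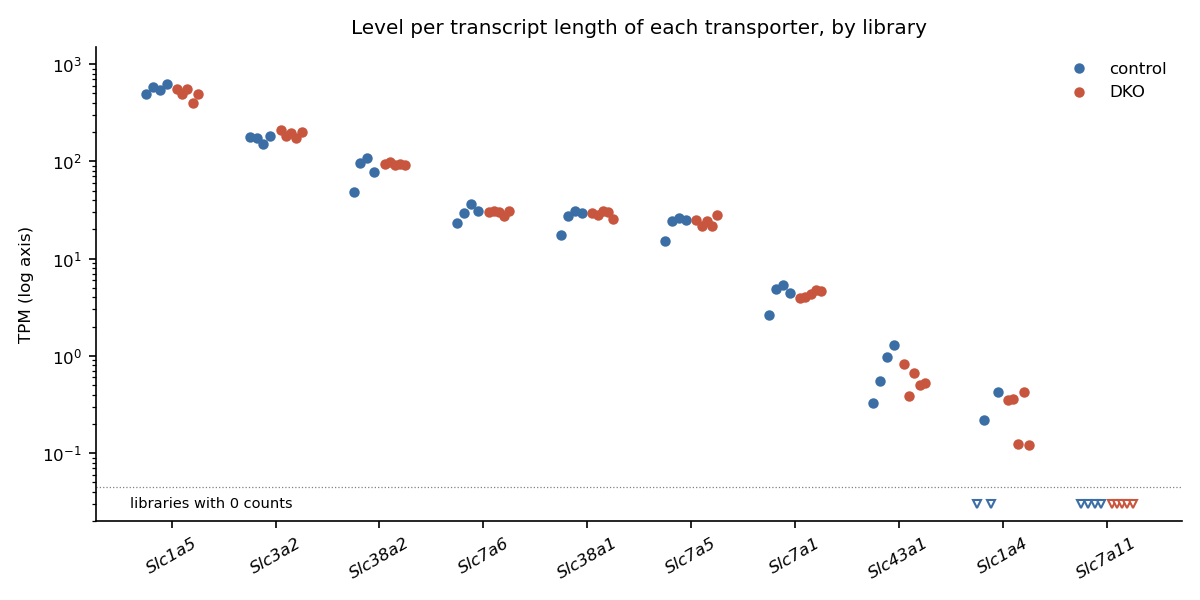
TPM of each transporter gene on a logarithmic axis, ordered from the highest to the lowest mean, with 1 point per library (blue control, red DKO). Triangles under the dotted line are libraries with 0 counts, and the group means keep the same order in both groups from Slc1a5 down to the undetected Slc7a11.

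Among the transporters of leucine and other large neutral amino acids, Slc7a5 encodes the light chain that carries the substrate (LAT1) and Slc3a2 the heavy chain (CD98hc) that brings it to the membrane. Slc7a5 (ENSMUSG00000040010.10, chromosome 8, 121881150 to 121907694, minus strand, GRCm38) was at 19.3, 28.0, 29.2 and 28.9 CPM in control replicates 1 to 4. In DKO replicates 1 to 5 the values were 28.1, 24.9, 26.9, 25.1 and 31.9 CPM. Control replicate 1 was the lowest of all libraries, and the other 3 controls lay inside the range of the DKO libraries. By edgeR the log2 fold change was 0.05 with an SE of 0.13 (adjusted p 0.882), and its 95% interval ran from 0.847- to 1.27-fold. Without control replicate 1 the estimate was -0.08 (adjusted p 0.696), so its sign was not stable.

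Slc3a2 (ENSMUSG00000010095.13, chromosome 19, 8706882 to 8723369, minus strand) was at 216.7, 187.1, 161.0 and 199.1 CPM in control. It was at 223.9, 196.9, 209.9, 193.7 and 220.0 CPM in DKO. Control replicate 3 was the lowest library, and control replicate 1 lay among the DKO values. By edgeR the log2 fold change was 0.13 with an SE of 0.09 (adjusted p 0.545), and its 95% interval ran from 0.949- to 1.26-fold. The estimate was 0.06 without control replicate 3 and 0.18 without control replicate 1 (unadjusted p 0.0378, adjusted p 0.216). Slc43a1 (ENSMUSG00000027075.16, chromosome 2, 84838850 to 84863594), which encodes the heavy-chain-independent carrier LAT3, had 31 to 132 counts in a library. It was at 0.640, 0.981, 1.66 and 2.32 CPM in control and at 1.44, 0.678, 1.16, 0.896 and 0.931 CPM in DKO. Its controls spread wider than the distance between the groups (log2 fold change -0.46 with an SE of 0.37, adjusted p 0.590 by edgeR), and the estimate was -0.10 without control replicate 4 and -0.71 without control replicate 1 (unadjusted p 0.0478, adjusted p 0.245).

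The heavy chain pairs with several light chains. On the TPM scale, Slc3a2 was 2.41 to 4.61 times the sum of 6 light chain genes that pair with it (Slc7a5, Slc7a6, Slc7a7, Slc7a8, Slc7a10 and Slc7a11) in control, and 3.39 to 3.73 times in DKO. The sum was made up almost wholly of Slc7a5 and Slc7a6, since Slc7a7 was at most 0.828 TPM, Slc7a8 at most 0.277 TPM, and the other light chains had no counts. The sum of the strand columns of Slc7a7 was 2.48 times its unstranded count, so its low value is uncertain. The highest ratio was that of control replicate 1, and the remaining controls were at 2.41 to 3.17, below all DKO libraries. This ratio was computed after values had been seen and is given as a description.

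Across the 9 libraries no relation between the heavy chain and its light chains passed the test. Of 3 relations tested on log2 CPM, Slc3a2 with Slc7a5 had a Pearson r of -0.19 (exact permutation p 0.581, adjusted 0.713, two-sided) and a Spearman rho of 0.03 (exact permutation p 0.948, adjusted 0.948). Slc3a2 with Slc7a6 had r = -0.62 (exact permutation p 0.0841, adjusted 0.252) and rho = -0.18 (exact permutation p 0.644, adjusted 0.948). Without control replicate 3 and DKO replicate 1, the libraries farthest from the median of Slc3a2, these r were -0.12 and -0.20. On deviations from the group means they were -0.32 and -0.66, and without control replicate 1 they were 0.11 and -0.60. Slc7a5 with Slc1a5, which supplies the glutamine that Slc7a5 exports, had r = 0.13 (exact permutation p 0.713, adjusted 0.713) and rho = 0.12 (exact permutation p 0.776, adjusted 0.948). It had r = 0.77 without control replicate 1 and DKO replicate 5, the libraries farthest in Slc7a5, 0.42 without control replicate 1 alone, and 0.32 on deviations from the group means.

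The genes whose log2 CPM was most like that of Slc7a5 over the 9 libraries were Chd7 (Pearson r 0.97), Atp2a3 (0.965) and Snx18 (0.964), all of them also low in control replicate 1. The genes most like Slc3a2 were Ssbp4 (0.984), Cyc1 (0.981) and P3h1 (0.965). These are the highest of all tested genes over 9 shared libraries, and are given as a description.

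Slc1a5 encodes ASCT2, a sodium-dependent exchanger of glutamine, alanine and serine, and was the most abundant transporter. Slc1a5 (ENSMUSG00000001918.17, chromosome 7, 16781340 to 16798274, plus strand) was at 699.7, 749.2, 676.8 and 813.8 CPM in control. It was at 692.8, 627.0, 692.1, 528.8 and 629.1 CPM in DKO. The 2 highest DKO libraries lay above the lowest control, and the lowest value was that of DKO replicate 4. The mean of the DKO libraries was 86.3% of the control mean. By edgeR the log2 fold change was -0.21 with an SE of 0.09 (unadjusted p 0.0422, adjusted p 0.291), and the 95% interval of the fold was 0.749 to 0.994. The estimate was lower in DKO under all 16 alternatives, at -0.25 to -0.16, with an adjusted p of 0.141 to 0.610.

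The sodium-coupled carriers of glutamine and other small neutral amino acids are encoded by Slc38a1 (SNAT1) and Slc38a2 (SNAT2), both on chromosome 15. Slc38a1 (ENSMUSG00000023169.15, 96571418 to 96642913, minus strand) was at 103.9, 146.3, 160.8 and 159.7 CPM in control and at 154.7, 148.5, 158.4, 164.6 and 136.0 CPM in DKO. Slc38a2 (ENSMUSG00000022462.7, 96687392 to 96699730, minus strand) was at 147.5, 265.1, 289.1 and 216.1 CPM in control and at 251.4, 268.0, 241.7, 259.1 and 249.3 CPM in DKO. Control replicate 1 was the lowest library for both genes, and the DKO libraries lay close together. By edgeR, Slc38a1 had a log2 fold change of 0.10 with an SE of 0.12 (adjusted p 0.752) and Slc38a2 one of 0.15 with an SE of 0.16 (adjusted p 0.700). Without control replicate 1 they were -0.04 and -0.03, with adjusted p of 0.801 and 0.899. The 95% intervals of the fold with all libraries were 0.886 to 1.29 and 0.872 to 1.40.

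Arginine and lysine enter T cells mainly through the carrier CAT1, encoded by Slc7a1, while Slc7a6 encodes a light chain (y+LAT2) that exchanges intracellular cationic amino acids for neutral ones. Slc7a1 (ENSMUSG00000041313.14, chromosome 5, 148327410 to 148399904, minus strand) was at 10.4, 17.3, 18.4 and 15.8 CPM in control and at 13.9, 14.5, 15.03, 17.2 and 16.5 CPM in DKO. Slc7a6 (ENSMUSG00000031904.5, chromosome 8, 106168857 to 106198706, plus strand) was at 36.1, 41.5, 49.7 and 44.4 CPM in control and at 41.6, 43.5, 41.7, 39.3 and 43.6 CPM in DKO. In both genes the controls spread more widely than the DKO libraries, on both sides of them. The log2 fold change was -0.01 (SE 0.16, adjusted p 0.990) for Slc7a1 and -0.03 (SE 0.10, adjusted p 0.900) for Slc7a6 in edgeR. Without control replicate 1 it was -0.17 (adjusted p 0.415) and -0.12 (adjusted p 0.419). The 95% intervals of the fold with all libraries were 0.784 to 1.27 for Slc7a1 and 0.843 to 1.13 for Slc7a6.

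**Figure D3:**
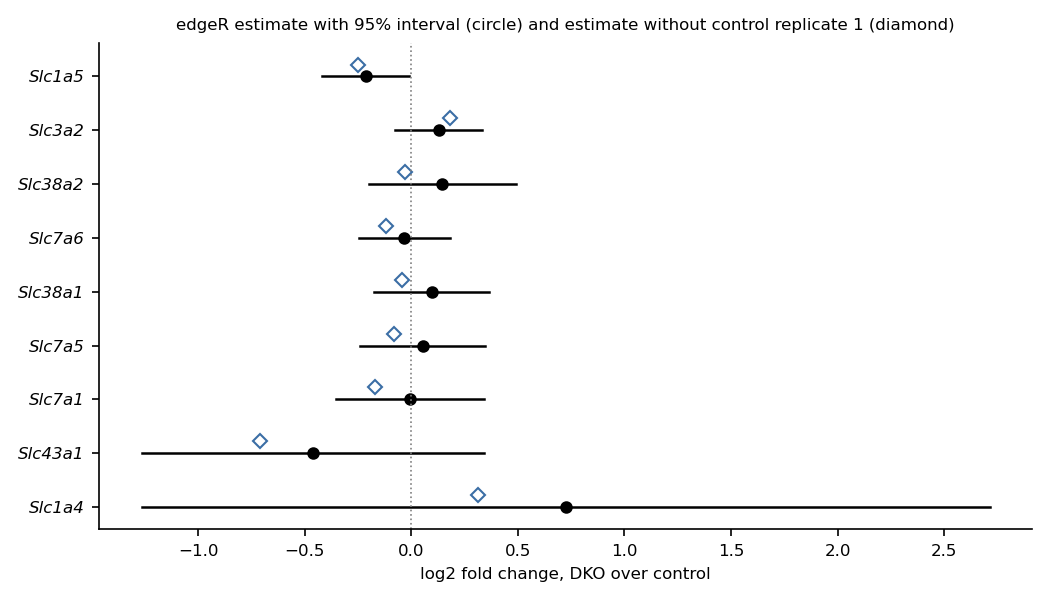
Log2 fold change of DKO over control (horizontal axis) for the 9 tested transporter genes, as the edgeR estimate with its 95% interval (circle and line) and as the estimate without control replicate 1 (diamond). All intervals but that of Slc1a5, which ends at -0.01, include 0, and Slc7a5, Slc38a1 and Slc38a2 change sign without that library.

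The remaining genes were barely expressed or silent at this depth. Slc7a11 encodes xCT, the light chain that imports cystine in exchange for glutamate, and Slc1a4 encodes ASCT1, a carrier of serine, alanine and other small neutral amino acids. Slc7a11 (ENSMUSG00000027737.10, chromosome 3, 49892526 to 50443614, minus strand) had 0 counts in each of the 9 libraries, which allows a level of up to 0.00647 CPM over all libraries from a floor of 3 counts. This floor and the intervals above do not account for PCR copies, since the libraries carry no molecular identifiers. Slc1a4 (ENSMUSG00000020142.12, chromosome 11, 20302180 to 20332713, minus strand) had 0, 15, 0 and 30 counts in control and 21, 26, 7, 27 and 7 counts in DKO. Both groups held libraries near 0, and the log2 fold change of 0.72, with an SE of 0.91 (adjusted p 0.746 by edgeR), had a 95% interval of 0.416- to 6.56-fold. The estimate was 0.31 without control replicate 1, 0.33 without control replicate 3 and 1.84 without control replicate 4. No difference in Slc1a4 was detected, with controls that spread from 0 to 30 counts and an estimate that moved with the control left out.

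Among the transporters with a promoter sequence, these 2 genes were also the ones whose window held the core of the amino acid response element, the sequence through which Atf4 raises transcription. The windows run from 250 bases before to 50 bases after the start of transcription (RefSeq, GRCm38.p6), and 9 windows were found for 7 of the 10 genes. The core TTGCATCA was searched on both strands and was present in 294 of 32851 windows (0.895%). The following stretches show the matches, 5′ to 3′ on the strand of the gene, with the core or its reverse complement in capitals.

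Slc7a11, chr3:50443661-50443690, minus strand: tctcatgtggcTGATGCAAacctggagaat

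Slc7a11, chr3:50443642-50443671, minus strand: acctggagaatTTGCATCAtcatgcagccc

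Slc1a4, chr11:20332699-20332728, minus strand: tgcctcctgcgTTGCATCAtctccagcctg

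In Slc7a11 the core occurred in both orientations, and the stretches share 11 bases. The windows of Slc38a2, Slc3a2, Slc43a1, Slc7a1 and Slc7a6 held no match to these letters. Slc7a5, Slc1a5 and Slc38a1 had no window and were not searched. Sequence outside the windows, such as introns, was not searched for any gene. The E-box CACGTG, a sequence bound by Myc among other factors, was present in 7.15% of windows and in the window of 1 of the 7 genes, Slc43a1. A match is a description of the sequence and no measurement of binding.

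Control replicate 1 was below the other 8 libraries for 6 of the 9 tested transporters: Slc7a5, Slc7a1, Slc7a6, Slc38a1, Slc38a2 and Slc43a1. It was above them for 0 of the 9. Over all tested genes it was below the other 8 libraries for 28.9% and above them for 28.3%. Against the mean of the other 3 controls it was at 57.4% for Slc38a2, 60.4% for Slc7a1, 66.8% for Slc38a1, 67.3% for Slc7a5 and 80.0% for Slc7a6, but at 118.8% for Slc3a2 and 93.7% for Slc1a5. It was at 38.7% for Slc43a1 and at 0 counts for Slc1a4, so Slc3a2 was the 1 transporter above the other controls in this library.

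The position of control replicate 1 moved with the length of the gene. Among tested genes with under 2000 bases of exon, 8.24% were lowest and 49.3% highest in this library. Among genes of 8000 bases and over, 59.6% were lowest and 7.94% highest. The 3 transporters of that longest class, Slc7a1 (11530 bases), Slc38a1 (17236 bases) and Slc38a2 (8838 bases), were all lowest in it. Slc7a5 (3708 bases) was lowest too, in a class of 2000 to under 4000 bases where 17.6% of genes were, while Slc3a2 (3529 bases), of the same class, was not. The part of gene length in the values of this library was not tested.

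**Figure D4:**
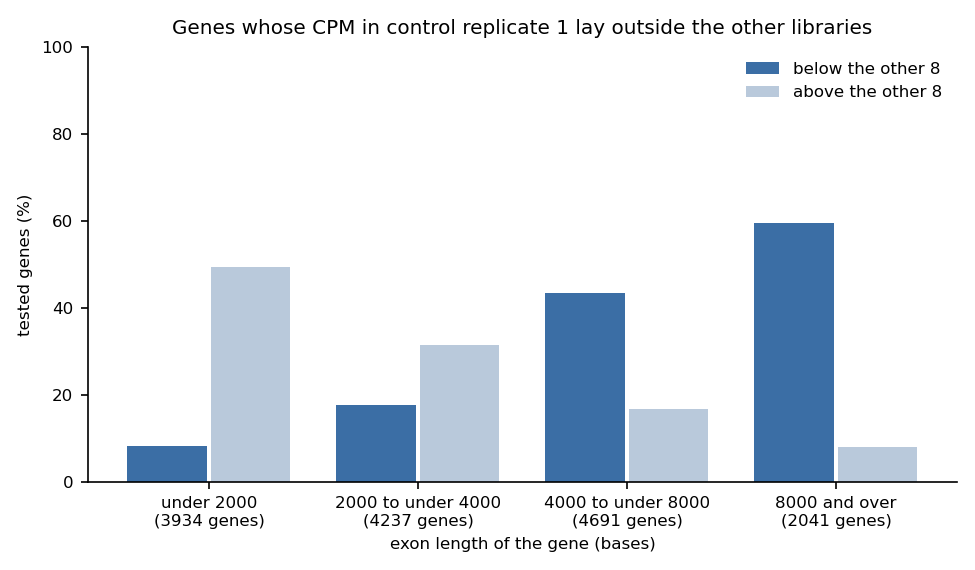
Percentage of tested genes (vertical axis) whose CPM in control replicate 1 lay below (dark) or above (light) all 8 other libraries, by exon length in bases (horizontal axis). The share below rises from 8.24% in the shortest class to 59.6% in the longest, which holds 3 of the transporters.

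Outside the 10 genes, the other plasma membrane amino acid transporters held 1 change. Of 34 genes on this list, 19 had counts and 9 were tested, and 1 rose (background 1.32% of tested genes) and 0 fell, with a median log2 fold change of 0.15. Among the 9 was Slc43a3, a nucleobase carrier (log2 fold change 0.38, adjusted p 0.299 by edgeR). Control replicate 1 was the lowest library for 5 of the 9. The gene that rose was Slc16a10, a carrier of aromatic amino acids and thyroid hormones. It was at 1.26, 1.61, 0.995 and 0.791 CPM in control and at 2.87, 3.93, 2.90, 2.69 and 2.24 CPM in DKO, so all DKO libraries lay above all controls. By edgeR the log2 fold change was 1.33 with an SE of 0.25 (adjusted p 0.0188). The call was lost without control replicate 4 (adjusted p 0.0542), DKO replicate 1 (0.0503) or DKO replicate 3 (0.0512). Slc6a6, the taurine carrier, named after its values had been seen, was at 80.5 ± 17.0 CPM (control) and 87.9 ± 5.29 CPM (DKO, adjusted p 0.689, edgeR).

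Transporters of lysosomes and other inner membranes held no call: 13 of 17 were tested, 0 passed the threshold (background 2.83%) and 5 had an unadjusted p under 0.05 (background 16.0%) in edgeR, with a median log2 fold change of 0.20. Control replicate 1 was the lowest library for 7 of the 13, against 28.9% of all tested genes. Among the 13 was Slc29a3, a nucleoside carrier. The smallest p were those of Mfsd12, a lysosomal cysteine importer, at 2.43 and 3.77 CPM in control and DKO (adjusted p 0.0906), Slc38a7, a lysosomal carrier, at 12.1 and 17.9 CPM (0.163), and Slc38a9, the arginine sensor of the lysosome, at 40.9 and 46.9 CPM (0.289). Of the list, 1 gene, Mfsd12, passed in DESeq2 (0.0105) and limma-voom (0.0408), and the sum of its strand columns was 2.40 times its unstranded count, so its value is uncertain. Slc38a7 passed without control replicate 2 (0.0317). Without control replicate 1 the log2 fold change was 0.41 in place of 0.56 for Slc38a7 and 0.14 in place of 0.20 for Slc38a9. That of Mfsd12 was 0.64 in place of 0.63. Without it the adjusted p by edgeR were 0.194, 0.327 and 0.0807.

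Of 13 carriers of amino acids into mitochondria, 12 were tested, 1 fell (background 1.51%) and 0 rose, with a median of 0.02. Sfxn3, a relative of the mitochondrial serine carrier Sfxn1, fell from 270.4, 287.4, 280.0 and 320.7 CPM to 231.3, 224.0, 245.2, 215.3 and 228.1 CPM. The groups did not overlap (log2 fold change -0.34 with an SE of 0.07, adjusted p 0.0357 by edgeR). The call was lost without any 1 library except control replicate 1 (adjusted p from 0.0547 up to 0.102), and with no low-count filter (0.0820).

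The RNA of a list of amino acid response genes, many of them targets of Atf4, was also compared. The activity of Gcn2 and Atf4 was not measured. Of 22 genes, 18 were tested, 1 fell (background 1.51%) and 0 rose, with a median of 0.08. At an unadjusted p under 0.05 were 3 genes (background 16.0%). They were Trib3, with a lower estimate in DKO, and Psat1 and Phgdh, genes of serine synthesis, with higher ones (adjusted p 0.246 and 0.301 by edgeR). Trib3, a pseudokinase that is a target and inhibitor of Atf4, was at 6.85, 5.73, 7.70 and 8.06 CPM in control and at 3.68, 4.39, 4.90, 3.92 and 3.85 CPM in DKO. The groups did not overlap (log2 fold change -0.77 with an SE of 0.15, adjusted p 0.0229 by edgeR), and the call was lost without control replicate 4 (0.0707) or DKO replicates 1 (0.0693), 4 (0.0600) or 5 (0.0562). Atf4 itself was at 107 ± 4.53 and 116 ± 5.73 CPM (adjusted p 0.429, edgeR), and Asns, the asparagine synthetase gene, at 11.6 ± 2.50 and 9.15 ± 3.44 CPM (0.547). Psat1, Phgdh, Atf4 and Asns were named after their values had been seen.

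Genes of amino acid sensing by mTORC1 and of tRNA charging held no call in edgeR. Of 28 sensing genes, 27 were tested and 0 passed (background 2.83%), with a median of 0.07. At an unadjusted p under 0.05 were 4 of them (background 16.0%). The smallest p was that of Castor2, a relative of the arginine sensor Castor1, at 8.79 ± 2.57 and 5.56 ± 0.650 CPM (adjusted p 0.116), followed by Fnip2 (0.209) and Rraga (0.281). Castor2 was the 1 sensing gene that passed in DESeq2 (0.0349) and in limma-voom (0.00685), and it also passed without control replicate 1 (0.00693). Of 20 cytosolic aminoacyl-tRNA synthetases, which load amino acids onto tRNA, 20 were tested and 0 passed (background 2.83%), with a median of 0.01. There were 2 at an unadjusted p under 0.05 (background 16.0%).

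The smallest p among the synthetases were those of Hars (88.3 and 70.0 CPM in control and DKO, adjusted p 0.0549), Farsb (83.5 and 64.9 CPM, 0.0663) and Yars (68.4 and 75.6 CPM, 0.333) in edgeR. In DESeq2 and in limma-voom 2 synthetases passed, Hars and Farsb. Hars passed in DESeq2 (0.00242), in limma-voom (0.0150), with the stricter filter (0.0409), with the strand columns summed (0.0443) and without control replicate 1 (0.0217). Farsb passed in DESeq2 (0.00890), in limma-voom (0.0327), with the stricter filter (0.0473) and without control replicate 1 (0.0439). Reads of Hars are shared with a gene on the opposite strand, since the sum of its strand columns was 1.13 times its unstranded count.

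**Figure D5:**
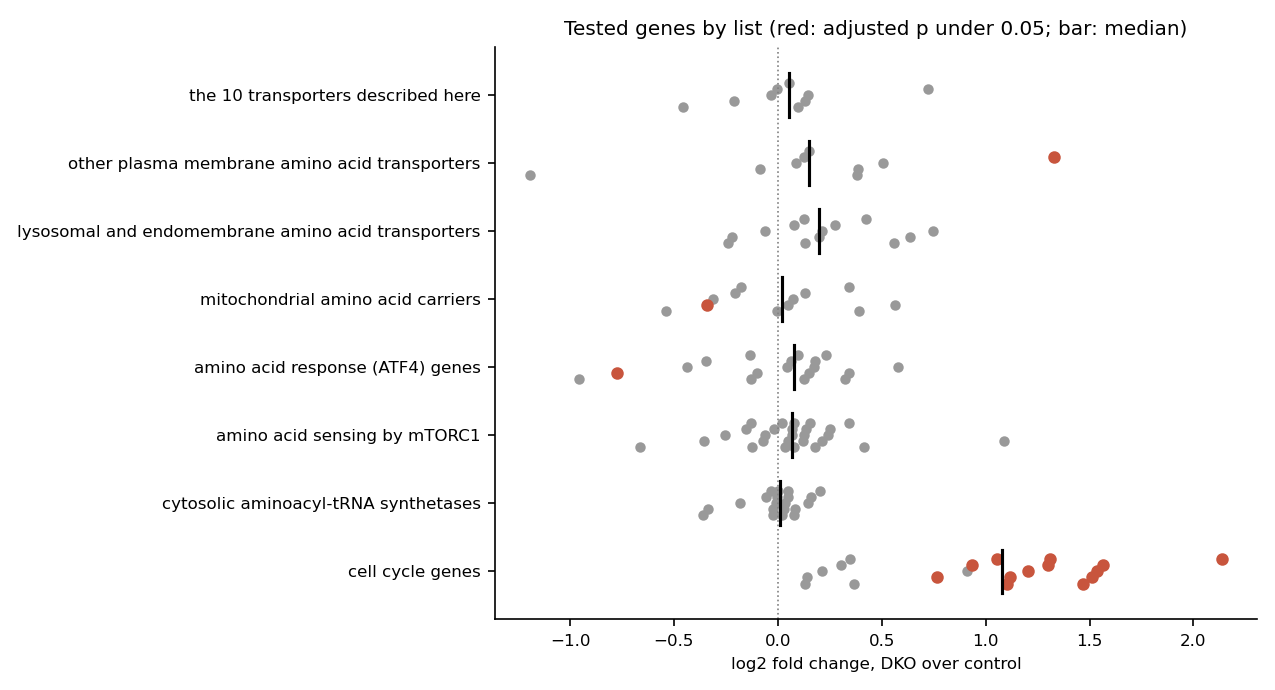
Log2 fold change of DKO over control (horizontal axis) for each tested gene of 8 lists, in red where the adjusted p was under 0.05, with the median of each list as a bar. The transporters and other amino acid lists have medians between 0.01 and 0.20 with 0 or 1 red point each, and the cell cycle list has 13 red points and a median of 1.08.

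The cell cycle list differed between the same libraries: its summed level was 1033 to 1221 CPM in control and 1371 to 2109 CPM in DKO. Of its 20 genes, 13 rose (background 1.32%). Control replicate 1 was the lowest of the 9 libraries for 14 of the 20. Myeloid genes summed to 166.2 to 201.1 CPM in control and 116.7 to 127.1 CPM in DKO, and 8 of 12 exceeded 1 CPM on average. Of 10 myeloid genes tested, 2 fell (background 1.51%), Ctss (81.2 and 51.3 CPM) and Cd68 (29.2 and 16.8 CPM). The myeloid estimates were lower in DKO for 7 genes and higher for 3, and 5 had an unadjusted p under 0.05 in edgeR (background 16.0%). DESeq2 and limma-voom each called 3 myeloid genes. Lyz2 was at 2.43 and 5.85 CPM (adjusted p 0.206 by edgeR) and Csf1r at 1.84 and 2.37 CPM (0.804). Cd14, Mpeg1, S100a8 and S100a9 were at most 0.534 CPM in any library. B cell genes summed to 195.3 to 275.3 and 210.0 to 219.6 CPM, of which Ighm was 208.8 and 188.3 CPM on average, and Pax5 was at 0 in all libraries. Erythroid and platelet genes summed to 6.88 to 36.1 and 10.3 to 35.7 CPM, and CD4 T cell genes to 30.7 to 39.3 and 34.6 to 46.6 CPM. Their median log2 fold changes were -0.70 over 6 tested genes and 0.58 over 4, with 0 calls in edgeR for each (background 2.83%). At an unadjusted p under 0.05 were 0 and 2 genes (background 16.0%). DESeq2 called 0 and 1 of them, and limma-voom 2 and 1. Cd4 itself was at most 0.663 CPM in any library. Of the CD8 T cell genes, 1 of 8 fell (background 1.51%), Cd8b1 (2247 and 1702 CPM). The estimate was lower in DKO for 7 of the 8, and 4 had an unadjusted p under 0.05 (background 16.0%). Control replicate 1 was the highest of the 9 libraries for 7 of the 8. The list summed to 9211 to 12325 CPM in control, highest in control replicate 1, and to 8979 to 9667 CPM in DKO. The fall of Cd8b1 without this library is not given here. The part of these lists in the values of Slc16a10, Sfxn3 and Trib3 was not tested. In bulk RNA, fewer cells of a type and less RNA per cell cannot be told apart.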

How the data were processed

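The values are raw counts that the authors deposited, with 1 file for each library laid out as STAR writes gene counts. Per the submitters' processing notes, Trim Galore 0.6.0, STAR 2.7.8a and the build mm10 were used. The unstranded count was used, which drops reads at overlaps of opposite-strand genes. Annotation and read filters: not given in the sources used here. For the 9 transporters with counts, the summed strand columns were 1.00 times the unstranded count, to 3 digits. Of 55471 identifiers, 55230 matched GENCODE M21 (GRCm38) without the version, which gave symbols, coordinates and exon lengths. Lines that name no gene were set aside, namely 10.3 to 16.7% of reads as unmapped, 5.80 to 6.79% as multimapping, 4.01 to 5.20% as outside features and 4.97 to 5.31% as ambiguous.

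The main test was the robust quasi-likelihood test of edgeR 4.0.16 (R 4.3.3) with TMM factors of 0.987 to 1.035. filterByExpr kept 14918 genes (minimum count 10, minimum total 15), over which p-values were adjusted by Benjamini-Hochberg at 0.05. CPM, log2 CPM (prior count 2) and TPM were computed here. Intervals are 95%, from edgeR's standard errors. Alternatives in method were DESeq2 size factors, DESeq2 1.42.0 and limma-voom (limma 3.58.1). The limma-voom fit used quality weights, so it also weighted each library by how well it fitted. Other alternatives were no filter, a stricter filter (1 CPM in 4 libraries), a block on the replicate number, summed strand columns, and leaving out each library. Data were simulated for DKO against control with 14918 genes, of which 200 changed. There edgeR called 61% of genes changed by 1 and 19% of genes changed by 0.5 on the log2 scale. False calls were 6.98% in edgeR, 24.0% in DESeq2 and 3.57% in limma-voom. The simulated libraries of a group shared the same mean for each gene, with none set apart as control replicate 1 was. Rates in the real data may therefore differ. Within a group, every pair of libraries differed by more than sampling noise (chi-square over genes).

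The transporters, lists and tests were chosen with earlier results of these data known. Named genes are the 10 transporters, both targets, every gene of the amino acid lists past the threshold or otherwise the 3 with the smallest p, and the 3 genes most like Slc7a5 and Slc3a2 by Pearson r, leaving out genes named by number. Ddit3 has 2 identifiers, and the one with more counts was used. The split by exon length covers the 14903 tested genes with a length and was added after seeing the data. Figures were drawn with matplotlib 3.10.9.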

Additional observations from a re-analysis of the deposited data

Results flagged for a closer look

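In the control group, Slc7a5 in replicate 1 was at 19.34 CPM, away from the other 3 controls at 28.0 to 29.2 CPM. The gap to its nearest neighbour was 0.875 of the group's range, above Dixon's 95% critical value for 4 libraries. This was the 1 such value among 18 sets of libraries (9 genes with counts in 2 groups), and chance gives about 1 in 20.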

How the results depend on the processing

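The count of transporters past the threshold was 0 with all libraries and 0 under each of the 16 alternatives. The count over all genes was 422 and moved to 1010 in DESeq2, to 996 in limma-voom, to 67 with the replicate number as a block, and between 179 and 749 on leaving out 1 library. The highest count was without control replicate 1, and the counts without control replicate 4 (187) and without DKO replicates 1 (179), 2 (280), 3 (180), 4 (221) and 5 (228) also moved by more than 1.5 times. The replicate numbers did not pair the libraries: same-numbered deviations from the group means correlated at -0.12 to 0.01, and no library correlated best with its own number. Under the block, Slc16a10 (adjusted p 0.0558), Sfxn3 (0.285) and Trib3 (0.168) missed the threshold. Of the transporters, the log2 fold change of Slc7a5 turned to -0.038 in limma-voom, which also weighted the libraries. It ranged from -0.082 to 0.108 on leaving out 1 library, turning without control replicate 1 and without DKO replicate 5 (-0.0099). Slc38a1 ranged from -0.042 to 0.159 and Slc38a2 from -0.029 to 0.278, both turning without control replicate 1. Slc7a6 ranged from -0.120 to 0.045 and turned without control replicate 3. Slc7a1 ranged from -0.169 to 0.088 and turned without control replicates 2, 3 or 4 and without DKO replicates 1, 2 or 3. The cause of these turns was not tested. Slc1a4 had no value under the stricter filter. Its counts were low and ran from 0 to 30 among the control libraries, which limits what can be seen of it.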
